A study of Drosophila melanogaster with 4 samples.

Results

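A group of 132 transcripts was strongly reduced in Drosophila larvae lacking normal function of the histone deacetylase gene Hdac1, yet remained measurable in the mutant. They were chosen by their signal ratio: the log2 ratio of mutant over wild type, after background subtraction and centring on the median of each array, was -3 or lower (an 8-fold reduction or more) on each of 4 arrays. Candidates were the 13285 transcripts with a FlyBase transcript identifier whose brightest probe was well above background in both channels on all 4 arrays, out of 15003 such transcripts on the arrays. The members were 0.994% of the 13285, and the mirror criterion, 3 or higher on every array, was met by 31 (0.233%). Because that ratio chose the members, their ratios are given as a description and were not tested. Among the array's other targets (expressed sequences, clones and RefSeq transcripts), 92 of 6594 met the same criterion, a share of 1.40%.

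Each array compared 2 RNA samples in 2 dyes. The wild type was the Oregon-R strain (green channel, Alexa Fluor 555), and the mutant carried the allele combination Hdac1[303]/Hdac1[def8] in the Oregon-R background (red channel, Alexa Fluor 647). Both were 3rd instar larvae raised at 25 °C, and each of the 4 arrays is labelled a biological replicate. Nothing says more of how the replicates were raised, so spreads between arrays may be partly technical. Total RNA was copied into labelled cDNA from its poly(A) tails with an oligo-dT primer. The sex and number of larvae per sample are not given in the sources used here. No dye swap was made (0 of 4 arrays), so a dye bias of a probe cannot be told apart from a difference between genotypes. All 4 arrays were on 1 slide and read in 1 scan. In larval RNA, fewer cells of a type and less RNA per cell cannot be told apart.

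Hdac1, also called Rpd3 in flies, encodes an enzyme that removes acetyl groups from histone tails and works within corepressor complexes such as Sin3. Histone acetylation generally accompanies open, transcribed chromatin, and deacetylases are best known for repression, although they are also found at active genes. The 3rd instar is the final larval stage, when the animal feeds and then prepares to pupate, and many abundant larval transcripts are bound to particular tissues and to narrow windows of time. An expression array of this kind reads each transcript through 1 or a few short probes, and the brightness of a probe depends on its own binding as well as on the RNA. Where signals of different probes are set side by side here, they describe how bright the spots were and not how abundant the transcripts were.

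The array design lists the members by FlyBase transcript identifier alone. None of the 132 members (0) could be paired with a gene symbol through the gene table used here, and 8 of the 15003 transcripts could. The probe of Hdac1 itself could not be paired with its gene, so the transcript of the mutated gene was not analysed here. Gene functions, chromosome positions and probe sequences of the members were not analysed here. The mutant channel was brighter throughout, with an uncentred median log2 ratio from 2.08 to 2.58 per array, so a transcript of equal relative level shows a higher raw mutant signal. The median spot of an array had 304 to 486 intensity units for wild type RNA against 1419 to 1888 for mutant RNA, and between 82.3% and 85.1% of spots were well above background. In the limma fit over all 13285 transcripts, 39.4% were called lower and 39.1% higher in the mutant (Benjamini-Hochberg adjustment, threshold 0.05). Centring on the median sets that balance, and a shift to the spike-in spots, added after the data were seen, gave 3169 lower and 7091 higher in place of 5228 and 5197. Those shares describe the contrast that also chose the members and are given as background.

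The members ran from just past 8-fold to about 200-fold. Their mean log2 ratios ranged from -7.65 to -3.19 with a median of -3.99, where all kept transcripts had a median near 0 (0.0044) and quartiles of -0.76 and 0.70. The mean ratio was above -4 for 67 members, from -4 to above -5 for 43, from -5 to above -6 for 16, and at -6 or lower for 6. The counts thus fell from each of these classes to the next. Next to the limit, from -3.25 to -3, only 2 of 73 kept transcripts were members, since every array had to reach -3. On a scale where each channel is set relative to its array median, the lowest wild type value exceeded the highest mutant value for every member (0 of 132 overlapped), as it did for 30.7% of all kept transcripts. On the raw background-subtracted signals, where the mutant channel is brighter, the ranges of 4 members overlapped, and 1.78% of all kept transcripts had every wild type value above every mutant value. These counts use the values that chose the members, and nothing is read from them.

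**Figure D1:**
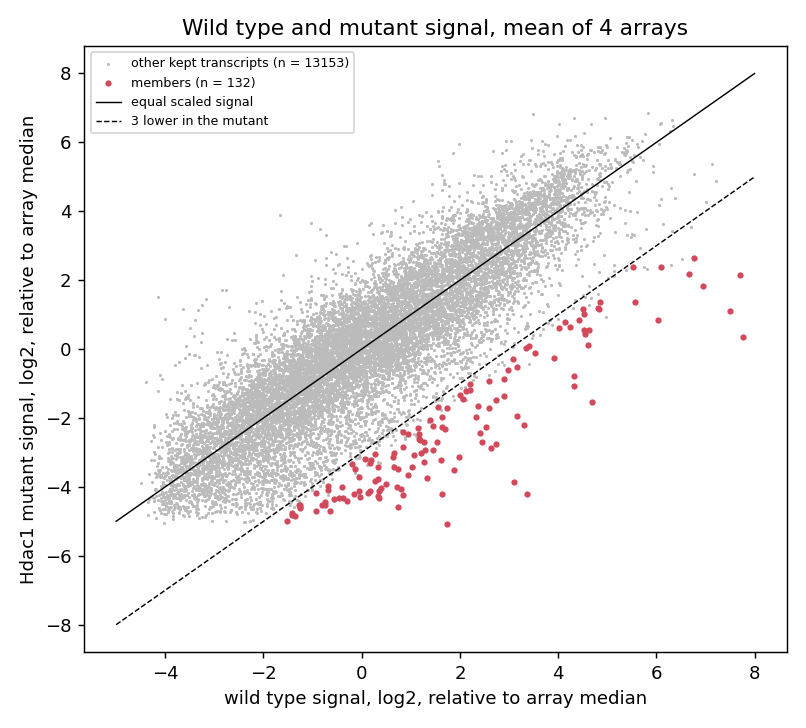
Mean log2 signal of each kept transcript in the wild type (x axis) and Hdac1 mutant (y axis), each relative to the median of its array and channel, as the mean of 4 arrays. The 132 members (red) lie below the dashed line of a difference of 3 and are missing at the dim end, below a mean wild type signal of 298.

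The lowest ratios belonged to transcripts with bright wild type spots, whose mutant spots were close to the edge of detection or far above it. FBtr0303731 had wild type signals of 9699.5, 9565, 7628 and 8005 on replicates 1 to 4, and mutant signals of 235, 174, 228 and 225. All 4 wild type values were far above all 4 mutant values. The log2 ratio was -7.65 ± 0.48 (SD, n = 4), a 201-fold lower level. That value rests on 1 probe printed as 1 spot. With the background modelled by normexp in place of subtraction it was -6.99, and with normexp and loess -7.03. FBtr0300627 had the brightest wild type spot of any member, with signals of 163452, 186949, 180203 and 200159. Its mutant signals were 4262, 5298, 5805 and 5025, so it stayed bright in the mutant while its log2 ratio was -7.48 ± 0.37, 178-fold lower. FBtr0088467 fell to the lowest mean mutant signal of any kept transcript. Its wild type signals were 3457, 1954.5, 2870 and 3042.75, and its mutant signals 147.25, 82, 137.5 and 113.25. The lowest of those mutant spots was 2.55 times its local background, and the log2 ratio was -6.87 ± 0.40.

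FBtr0083461 was at -6.53, -6.60, -5.76 and -6.86, with a mean of -6.44 ± 0.48 (log2 ratio, SD, n = 4). Its wild type signals lay between 146558 and 156415, its mutant signals between 7218.5 and 11425, and the ranges were well apart. FBtr0077393 was at -6.11, -6.55, -6.04 and -6.45, with one of the smaller spreads among the strongest reductions (SD 0.25). FBtr0076095 was at -5.34, -6.47, -4.53 and -6.03, where replicate 3 was least reduced and replicate 2 most. Its wild type signals agreed within 164009 to 184728, while its mutant signals ran from 11681 on replicate 2 to 30929.5 on replicate 3. FBtr0084242 was at -5.58, -5.85, -5.13 and -5.64, with wild type signals from 7190 to 10187 and mutant signals from 706.75 to 1040.5. Together with the 3 transcripts below whose wild type signal itself differed between arrays, these were the 10 lowest mean ratios.

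**Figure D2:**
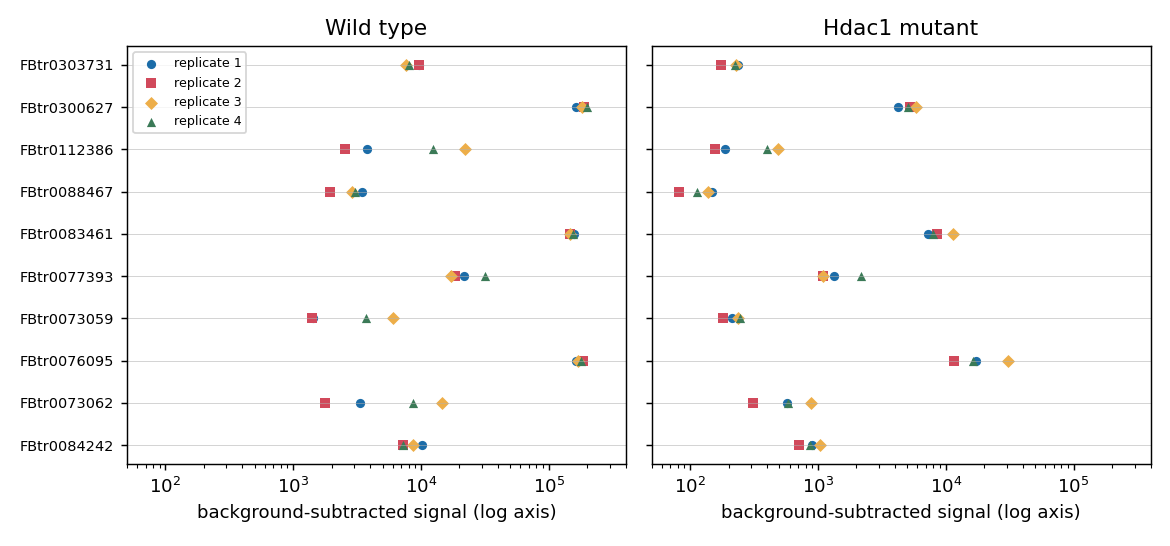
Background-subtracted signal (log axis, arbitrary units) of the 10 members with the lowest mean ratio, in wild type (left) and Hdac1 mutant larvae (right). Each point is 1 array, and the mutant channel is brighter throughout, so the drop between panels understates the centred ratio. FBtr0112386, FBtr0073059 and FBtr0073062 have wild type values that are higher on replicates 3 and 4 than on replicates 1 and 2.

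FBtr0112386, FBtr0073059 and FBtr0073062 shared a pattern in which the reduction was deepest on replicates 3 and 4. FBtr0112386 had wild type signals of 3771.75, 2557.5, 21979 and 12424, and mutant signals of 186.25, 157.75, 483.75 and 403. Both channels were higher on replicates 3 and 4, the wild type by more, and the log2 ratio was -6.43, -6.51, -7.58 and -7.53. FBtr0073059 had wild type signals of 1432.5, 1404.5, 6068 and 3745.5, against mutant signals that hardly moved, at 211.5, 180.75, 238 and 244. Its log2 ratio was -4.85, -5.45, -6.75 and -6.52, so the spread (SD 0.90) came with the wild type channel. FBtr0073062 followed with wild type signals of 3344, 1762, 14484 and 8620.5 and log2 ratios of -4.64, -4.99, -6.11 and -6.48. These were the 3 largest gaps between the pairs of arrays among 16 members (12.1%) whose ratios on replicates 3 and 4 both lay below those on replicates 1 and 2. Among all kept transcripts 20.1% had that order, and the reverse order was seen in 22 members (16.7%) and in 24.4% of all kept transcripts. Across all kept transcripts the ratios of replicates 1 and 2 (r = 0.957) and of replicates 3 and 4 (r = 0.962) were the most alike pairs, as a description across transcripts, which share arrays and are not independent. Among the members, replicates 3 and 4 were again the most alike (r = 0.90), but replicates 1 and 2 (r = 0.82) were less alike than every pair except replicates 2 and 3 (r = 0.71).

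The members differed more between arrays than the bulk of transcripts did. The SD of the log2 ratio between arrays had a median of 0.36 over the members and 0.24 over all kept transcripts, and it was above 0.5 in 27 members. Wild type signal was the more variable channel, with a median SD of 0.35 on the log2 scale after centring each array, against 0.24 for the mutant signal. Over all kept transcripts those medians were 0.24 and 0.19. For 32 of 132 members the mutant signal had the larger SD. The share of all kept transcripts is not given here for that count or for SDs above 0.5, so nothing is read from either. Replicate 2 gave the lowest ratio for 63 members (47.7%) and replicate 3 the highest for 83 (62.9%), where 20.2% and 20.5% of all kept transcripts had their lowest and highest values there. Both held for 51 members. The median ratio of the members was -3.96, -4.22, -3.65 and -4.13 on replicates 1 to 4. In the centred wild type channel their median was lowest on replicate 3 (1.21) and higher on replicates 2 and 4 (each 1.63). In the centred mutant channel it was lowest on replicate 2 (-3.04), with the others between -2.74 and -2.64. Whether depth, dye or the animals account for this order between arrays was not tested.

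**Figure D3:**
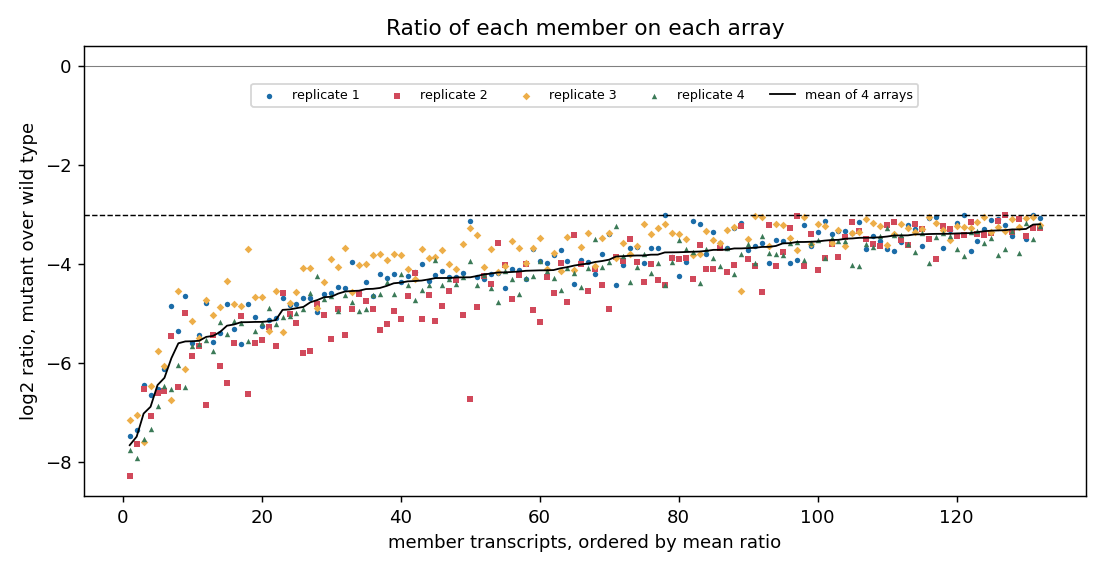
Log2 ratio of mutant over wild type (y axis) of each of the 132 members (x axis, ordered by mean ratio) on each of 4 arrays, with the mean as a line and the limit of -3 dashed. Replicate 3 (diamonds) gave the highest value for 83 members and replicate 2 (squares) the lowest for 63.

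The widest spread belonged to FBtr0077612, at -3.11, -6.73, -3.26 and -3.94 (mean -4.26, SD 1.68, n = 4). Its wild type signals of 40256, 50969, 30852 and 39495 had an SD of 0.59 on the centred log2 scale, and its mutant signals of 19772, 2697.5, 13582.5 and 15466 one of 1.20. The mutant signal of replicate 2 was far below the other 3 while its wild type signal was the highest, and without that array the mean was -3.44. A second probe of this transcript gave a mean of -4.44 with an SD of 1.64, so the difference between arrays was seen at both probes. FBtr0084811 was at -4.80, -6.62, -3.69 and -5.55 (SD 1.24), and here the wild type signal of replicate 3, at 9831.75, was well under the 19235 to 20872 of the others. FBtr0300294 was at -4.78, -6.83, -4.71 and -5.53 (SD 0.98). Its mutant signal was lowest on replicate 2, at 790.5 against 2079 to 3507.5 elsewhere. In these 3 transcripts the depth of the reduction differed between replicates by more than its spread in most members, while every array stayed below -3.

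The steadiest members sat at the same ratio on every array. FBtr0073531 was at -3.06, -3.27, -3.21 and -3.22 (SD 0.09), FBtr0078306 at -4.29, -4.23, -4.06 and -4.22 (SD 0.10), and FBtr0079662 at -3.38, -3.60, -3.58 and -3.47 (SD 0.10). The further probe of FBtr0078306 was at -1.83 ± 0.81 (SD, n = 4), and with all its probes averaged that transcript stood at -2.94, outside the limit. FBtr0071580 was at -3.31, -3.29, -3.50 and -3.43 (SD 0.10) although its wild type signal ranged from 2119 to 6655.5. Mutant and wild type signals of FBtr0071580 moved together between arrays, from 1218.75 to 2479 in the mutant. Spots of the same probe within an array agreed more closely than arrays did. For the 72 members printed as several spots (2 to 10 spots per probe), the median SD between spots was 0.12 and that between arrays 0.36, and the SD between arrays was the larger in 67.

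Members included some of the brightest wild type spots and none of the dimmest, with mean wild type signals from 298 to 182691, where all kept transcripts started at 38.1 and had a first quartile of 305. The mean wild type signal had a median of 2313 over the members and 855 over all kept transcripts, and 105 members lay above the latter value. The mean mutant signal had a median of 598, against 4059.5 over all kept transcripts, and 107 members lay below it. A transcript must be bright in wild type to lose 8-fold and still be detected, so these positions are partly set by the criterion. The 5 brightest in wild type were FBtr0300627, FBtr0076095 and FBtr0083461, described above, with FBtr0075585 and FBtr0076160. FBtr0075585 had wild type signals of 94863, 109659, 100278 and 109344, mutant signals of 10616.8, 13256.5, 16668 and 17937.5, and a log2 ratio of -5.16 ± 0.36 (SD, n = 4).

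FBtr0076160 kept the highest mutant signal of the members, at 21023, 23345, 30257 and 25483, with wild type signals of 90264, 87473, 92074 and 94099. Its log2 ratio was -4.18 ± 0.36 (SD, n = 4). FBtr0073531, FBtr0078099, FBtr0076095 and FBtr0076096 followed in mutant signal, with means of 21149.7, 21039.9, 19025 and 18331. FBtr0078099 was at -3.85, -3.86, -3.36 and -3.96, with the ratio on replicate 3 the least reduced. For 26 members the scanner software had rescaled the wild type spot from its low-gain scan on at least 1 array, on all 4 arrays for 11 of them, and the mutant spot for 7. No member spot was saturated (0).

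At the other end, 19 members had a mutant spot under 4 times its local background on at least 1 array. Their ratios depend most on the background that was subtracted. FBtr0084241 had wild type signals of 349.25, 228, 337.75 and 355 and mutant signals of 153, 141, 139.25 and 157.75, with a log2 ratio of -3.39 ± 0.25 (SD, n = 4). With the background modelled by normexp in place of subtraction it stood at -2.74, with no subtraction at -3.02, and with normexp and loess, which also changes the normalisation, at -2.20. FBtr0077522, with mutant signals of 164, 128, 153 and 169, was at -4.12, at -3.40 with normexp and at -3.70 with no subtraction. FBtr0088467 moved from -6.87 to -5.92 and -6.29 under those settings. Of the 15003 transcripts, a further 148 were well above background in wild type on all 4 arrays and in the mutant on none, and 294 in the mutant on some arrays. Those 148 and 294 transcripts have no measured mutant level on every array and are outside the group.

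A single probe stood for 87 of the 132 members (65.9%), close to the 66.5% of all kept transcripts. The other 45 had 50 further probes, of which 35, in 32 members, were well above background in both channels on all arrays. These measure the same contrast and are a description. Their median log2 ratio was -3.003, beside -0.11 for the 4886 such probes of all kept transcripts, and it ranged from -6.49 to 0.33. The reduction was -3 or lower on every array at 14 of the 35 probes, in 14 members, and -1 or lower on every array at 26. Of the 15 other probes, 3 were detected in wild type on all arrays and in the mutant on none, 4 in neither channel on any array, and 8 in part.

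Brighter further probes lay closer to the limit or below it. Among 24 whose wild type signal was at or above that of the dimmest member (298), the median ratio was -3.63 and 14 were at -3 or lower on every array. Among 11 dimmer ones the median was -1.41, the lowest was -2.39, and none (0) reached -3. A dim probe has little room to fall to -3 and still be detected in the mutant. This split is therefore partly set by the detection mark. The further probe of FBtr0083461 gave -6.49 ± 0.51 (SD, n = 4) beside -6.44 at its brightest, and that of FBtr0075585 gave -4.95 ± 0.71 beside -5.16. The further probe of FBtr0073062 gave -4.82 ± 0.90 beside -5.55, and that of FBtr0071580 gave -4.25 ± 0.25 beside -3.38. Whether probes of a transcript overlap in sequence, or read different isoforms, is not given in the sources used here.

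Among the 32 members with a detected further probe, the probes disagreed most in 4. Further probes not detected in both channels on all arrays were left out of that ranking, and some of them differed more. FBtr0073011 had -4.50 at its brightest probe and -0.46 ± 0.12 at the further one, whose mean wild type signal was 68.4. FBtr0086991 had -3.38 at its brightest probe and 0.33 ± 0.09 at the further one, the single one of the 35 detected further probes above 0. The mean wild type signal at that probe was 479, above that of the dimmest member, and its mean mutant signal was 2936. FBtr0077522 had -4.12 and -0.59 ± 0.28, and FBtr0081171 had -4.48 and -1.17 ± 0.21 (SD, n = 4). Mean wild type signals at those further probes were 107.6 and 119. With the mean of all probes FBtr0086991 stood at -1.45, FBtr0073011 at -2.40, FBtr0077522 at -2.28 and FBtr0081171 at -2.75, all outside the limit. For these 4 transcripts the 8-fold reduction is a statement about 1 probe. The further probes of FBtr0073011, FBtr0077522 and FBtr0081171 are so dim that they have little room to show -3 while detected. Their mean mutant signals were 246.6, 358.4 and 264, however, above the 120 of the dimmest kept transcript in the mutant. Lower ratios than those seen could thus have been measured. The cause of the disagreement between probes was not tested.

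**Figure D4:**
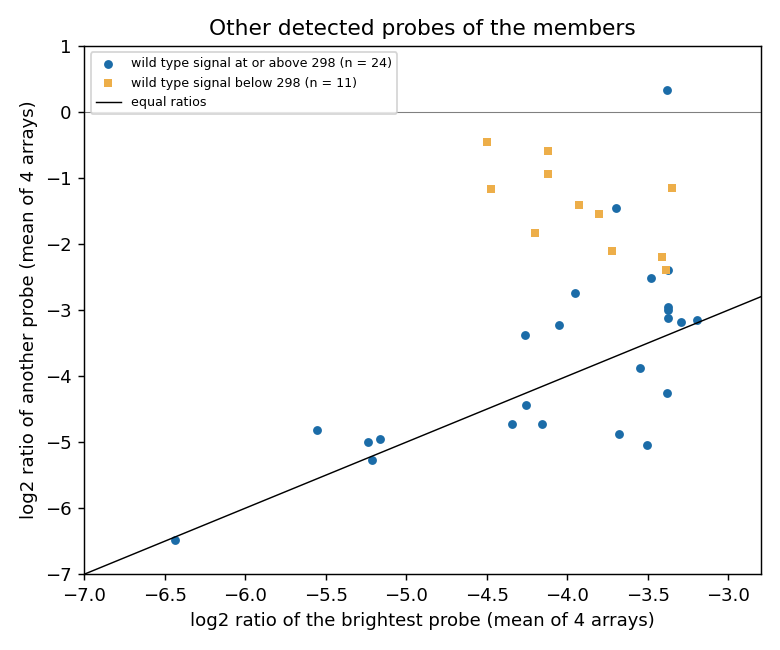
Mean log2 ratio over 4 arrays of the 35 further detected probes of members (y axis) against that of the brightest probe of the same transcript (x axis), with a line of equal ratios. The 24 probes with brighter wild type spots (circles) have a median of -3.63. The 11 dimmer ones (squares), with a median of -1.41, all lie above -3. Dim probes have little room to reach -3 and stay detected in the mutant.

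Some members stood next to each other in the array's own numbering, which the criterion did not use. Most probe numbers of this design are 5 apart, and what orders them is not given in the sources used here. Of 103 members with a kept transcript at such a next probe number, 9 stood beside another member. The same share over all kept transcripts is not given here, so nothing is read from that count. The 146 other transcripts at those numbers, members left out, had a median log2 ratio of -0.26. Of these 146, 33 were at -1 or lower and 13 at 1 or higher. All kept transcripts had shares of 18.9% and 15.3% there. The 6 consecutive probes from A_09_P044636 to A_09_P044661 all fell below -3 on every array. They target FBtr0077393 (-6.29 ± 0.25), FBtr0076096 (-4.53 ± 0.38), FBtr0070524 (-5.24 ± 0.89), FBtr0083461 (-6.49 ± 0.51, its further probe), FBtr0076095 (-5.59 ± 0.85) and FBtr0076160 (-4.18 ± 0.36; log2 ratios, SD, n = 4). FBtr0070524 and the stretch itself were chosen after their values were seen. The probes on either side differed, with 0.81 ± 0.34 at A_09_P044631 (FBtr0070474) and -0.67 ± 0.08 at A_09_P044666 (FBtr0089657). FBtr0070524, the member not yet described, had ratios of -4.80, -6.40, -4.34 and -5.41. In all 6 replicate 3 was the least reduced, as it was for 62.9% of all members.

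**Figure D5:**
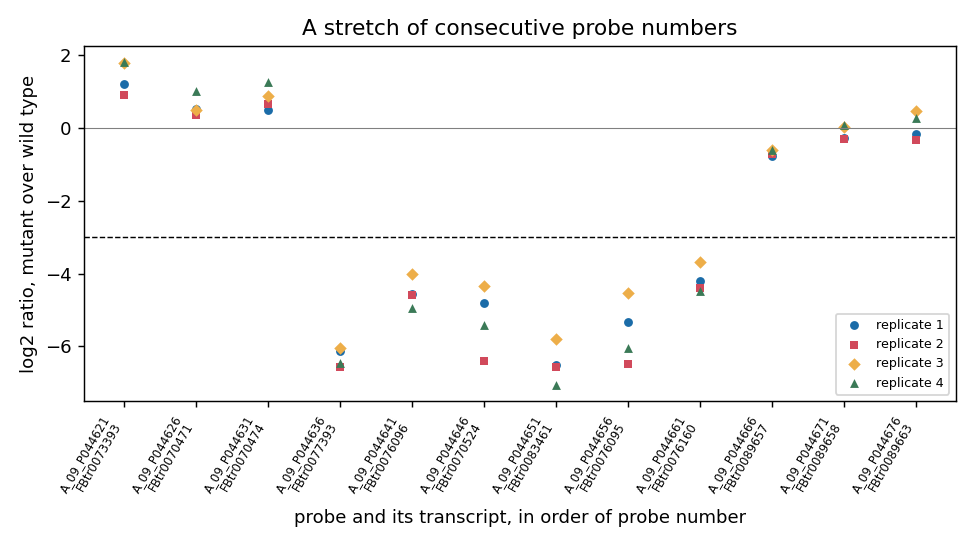
Log2 ratio of mutant over wild type (y axis) on each of 4 arrays for 12 consecutive probe numbers (x axis, with the transcript of each probe). The 6 probes from A_09_P044636 to A_09_P044661 lie between -7.05 and -3.68, below the dashed limit of -3, and the 3 on either side lie between -0.76 and 1.81.

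Consecutive FlyBase numbers were shared by 2 pairs of members. FBtr0076095 (-5.59) and FBtr0076096 (-4.53) form the first, and both belong to the stretch of probes above. FBtr0084241 (-3.39) and FBtr0084242 (-5.55) form the second, and the former had far dimmer wild type spots (mean 317.5 against 8325). Within a distance of 5 numbers, 10 members had another member near them, out of 131 with any kept transcript that near. The FBtr0073059 and FBtr0073062 pair described for its pattern across arrays was among these 10, 3 numbers apart. Over all kept transcripts, 4.82% of those with a neighbour within 5 numbers had a member there.

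Transcripts numbered directly before or after a member were mostly not reduced like it. There were 132 such kept transcripts that were not members, with a median log2 ratio of -0.31 and a range from -3.52 to 1.82. Of these, 26.5% were at -1 or lower and 12.1% at -2 or lower, where all kept transcripts had 18.9% and 6.77%. At 1 or higher there were 12.9%, against 15.3% of all kept transcripts. Next to FBtr0300627, at -7.48, FBtr0300628 was at -2.03, -5.12, -1.85 and -3.06, a transcript chosen after its values were seen. Next to FBtr0112386, at -7.01, the 2 neighbouring numbers gave -1.76 and 1.02. A neighbouring number may be another transcript of the same gene or another gene, and the tables used here do not settle which. No difference between neighbours and other transcripts was tested.

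The limit of -3 cut through a continuous range. Just inside it, by their highest array, were FBtr0080138 (-3.005, -3.40, -3.24 and -3.84), FBtr0080673 (-3.01, -3.26, -3.04 and -3.48), FBtr0290239 (-3.21, -3.01, -3.33 and -3.68) and FBtr0083777 (-3.01, -4.43, -3.18 and -4.41). Just outside were FBtr0084599 (-3.76, -3.78, -2.99 and -3.80), FBtr0302384 (-3.70, -3.48, -2.99 and -3.37), FBtr0083741 (-2.97, -3.05, -3.12 and -3.54) and FBtr0302590 (-3.54, -2.97, -3.28 and -3.28). The mean ratio of FBtr0084599, at -3.58, was lower than that of all 4 just inside except FBtr0083777 (-3.76). A mean of -3 or lower was reached by 245 kept transcripts, 113 of which had at least 1 array above the limit.

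The spots of the members were spread over the array. Of their 212 spots, 51 lay at the upper left, 49 at the upper right, 51 at the lower left and 61 at the lower right. Those are shares of 24.1%, 23.1%, 24.1% and 28.8%, beside 24.9%, 25.7%, 24.5% and 24.8% of the spots of all kept transcripts. No corner of the array held most of the members.

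Tissue markers could be read for few genes. Of 39 markers of larval tissues, 7 had a probe with a gene name, all 7 well above background in wild type on 4 of 4 arrays. LysE, a lysozyme of the gut, was at 2.99 ± 0.44, and the cuticle protein gene Cpr60D at -2.17 ± 0.58 (log2 ratio, SD, n = 4). Cpr60D was lower on replicates 3 (-2.76) and 4 (-2.54) than on replicates 1 (-1.54) and 2 (-1.83). That order was also seen in FBtr0112386, FBtr0073059 and FBtr0073062, and in 20.1% of all kept transcripts. LysE, though raised in the mutant, had it too, at 3.34, 3.39, 2.73 and 2.49 on replicates 1 to 4. The muscle regulator gene Mef2 was at -0.23 ± 0.12, the calcium channel gene cac at -0.17 ± 0.05 and the nicotinic receptor gene nAChRalpha6 at -1.31 ± 0.14. The male dosage compensation RNAs stood at -0.24 ± 0.28 for roX1 and -2.18 ± 0.54 for roX2. No fat body, salivary gland or haemocyte marker was among the 7. The part of tissue makeup, sex or developmental timing in the reduction of the members was not tested.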

How the data were processed

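Agilent Feature Extraction 10.5.1.1 quantified the scans, per the submitters' processing notes and the file headers. Median pixel intensity of spot and local background was deposited per channel, beside a processed intensity that the software corrected for background and dye. Its log10 ratio (mutant over wild type), also deposited, served as an alternative. The submitters' processed table repeats it and was not used.

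Spots of a probe were averaged, the brightest probe per FlyBase transcript was kept, and detection needed the software's well-above-background mark in at least 0.5 of its spots in both channels on 4 arrays. Log2 ratios of background-subtracted medians were centred on the median of 13285 kept transcripts per array. All values are relative to that centre. limma 3.58.1 in R 4.3.3 (lmFit, eBayes, two-sided, Benjamini-Hochberg over all kept transcripts) gave the background counts and was checked on simulated data. Other steps used pandas 2.3.3 in Python 3.11.15. The number of arrays limits precision.

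Members and lists were chosen with earlier results of these data known. Named members were the 10 lowest mean ratios, the 5 highest signals per channel, and the 4 largest and 4 smallest SDs. Added to these were the 4 nearest each side of the limit, consecutive FlyBase numbers, and the 4 whose detected probes differed most. The marker list was fixed with them. Alternatives were the scanner log ratio, normexp (offset 50) with loess or median centring, no background subtraction, non-uniform spots left out, other limits, no detection filter, all probes averaged, and each replicate left out. A spike-in shift was added after the data were seen.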

Additional observations from a re-analysis of the deposited data

Results flagged for a closer look

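Among 32 values given per array, 1 had an array lying far outside the rest, where chance alone would give about 1 in 20 of the values tested, or 1.6 of 32. The median wild type signal of the members was 1983 on replicate 2, below the 2374 to 2434 of the other arrays. Wild type spots over the whole array were also dimmest on replicate 2 (median 304, the others from 378 to 486), and ratios are centred within each array.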

How the results depend on the processing

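The count of 132 members changed with the limit, to 610 at -2, 36 at -4 and 245 with a mean of -3 or lower. The other planned settings gave 89 to 160, with 104 without background subtraction, 95 with normexp and loess (87 of them among the 132) and 129 with the scanner log ratio (121 among the 132). With 1 replicate left out the count ran from 134 to 176, and it could only stay or rise, since the criterion loses 1 condition. The median of the members then ran from -4.08 to -3.83. That median, -3.99, was -3.68 with all probes averaged, -3.71 with normexp and loess and -3.62 with normexp and median centring. The spike-in shift, which rests on spike amounts unknown here, moved the median of all transcripts by 0.45 and gave 70 members, a median of -3.55 and 3169 transcripts called lower in place of 5228. Lower transcripts were then 30.9% of limma's calls, against 50.1% with median centring and 45.2% with the scanner log ratio, which moved the median of all transcripts by 0.11. Calls ran from 4941 to 5059 with 1 replicate left out. Further probes at -1 or lower on every array were found in 23 members in place of 14 at -3, and 14 to 15 with 1 replicate left out. The median wild type signal was 4594 by the scanner's processed signal, a differently scaled unit, against 2313, and 2197 to 2445 with 1 replicate left out. No value of the 30 named members changed sign under any setting run. That was close to fixed in advance, since all were chosen at -3 or lower on every array. Moves of over 1.5 times were seen for 9 with normexp and loess and 7 with normexp and median centring. They were seen for 5 with all probes averaged and 1 without replicate 2 (FBtr0077612, -3.44). The cause of these moves was not tested, apart from limits and probe choice, which act by construction. Leaving out a replicate also acts by construction on counts that need every array, of members and of further probes. Each array holds mutant and wild type RNA of 1 replicate and enters as a ratio, so the limma fit is paired by array. Dim mutant spots limit what the lowest ratios can show.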
